A study of Mus musculus with 7 samples.

Results

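The 10 genes described here encode subunits and inhibitors of NF-κB. They were Nfkbia, Nfkbib, Nfkbie, Nfkbiz, Nfkbid, Bcl3, Nfkb1, Nfkb2, Rel and Relb, chosen by name as rows found in the counts of every library, out of 28719 gene rows in all and 15212 with at least 1 UMI (unique molecular identifier, a tag that marks 1 captured RNA molecule) in the cells used. NF-κB factors are dimers that wait in the cytoplasm of a resting cell, bound by inhibitors of the IκB family, and enter the nucleus once a kinase complex has marked the inhibitor for destruction. Many of the genes they switch on encode their own inhibitors and subunits, so that transcripts of the family are commonly read as a trace of recent signalling. In neutrophils the pathway lies downstream of the IL-1, TNF and Toll-like receptors and drives chemokines and survival genes.

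The study profiled single neutrophils, sorted as live Ly6G+ Cd11b+ cells from wild-type male C57BL/6J mice, by droplet-based RNA sequencing. Bone marrow, spleen and blood of untreated mice gave 1 library per tissue in each of 2 replicates, at 6 weeks of age in replicate 1 and 8 weeks in replicate 2, and the tissues of a replicate came from the same pool of 3 mice. A further library held 5 conditions told apart by hashtag antibodies, each a pool of 3 mice aged 8 weeks, with no replicate: untreated blood, blood and joint lavage on day 7 after 150 µl of K/BxN serum (arthritogenic serum of another mouse line) on days 0 and 2, bronchoalveolar lavage 3 h after 25 ng of IL-1β into the nose, and peritoneal lavage 3 h after 25 ng of IL-1β into the peritoneum. Only the mice given IL-1β into the nose were anaesthetised for the dose, and the serum and IL-1β models differ in agent, time and site at once, which cannot be told apart here.

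Neutrophils of the healthy libraries were taken as cells with at least 3% of UMIs from S100a8 and S100a9, which kept 12755 of 16907 cells (1135 to 3672 per library). In the inflammation library they were the 4852 of 4856 cells that the authors had assigned to a granulocyte class, 292 to 2857 per condition. All 15 neutrophil markers were above 0 in each of the 11 libraries and conditions. UMIs summed to between 1360064 and 9104133 per healthy library and between 942688 and 10293966 per condition, with a median of 775 to 2698.5 UMIs per cell in the former and 2527 to 3681 in the latter. Spleen of replicate 2 stood apart, since its kept cells carried 927 CPM (the UMIs of a gene scaled to a common total per library) of 9 B cell markers and 213 CPM of 9 T cell markers, against 22.0 and 43.2 CPM in spleen of replicate 1. Blood of replicate 2 carried 30340 CPM of 5 haemoglobin and erythroid genes, against at most 912 CPM in the other healthy libraries. At most 36 cell barcodes were shared by any pair of libraries. Each transcript gives 1 tag, so levels are given in CPM and do not scale with length. The 2 sets of libraries used different chemistry, and levels are not compared across them.

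The genes lie apart in the genome (GRCm38), except that Relb (chromosome 7, 19606217 to 19629438), Bcl3 (chromosome 7, 19808462 to 19822770), Nfkbib (chromosome 7, 28758251 to 28767512) and Nfkbid (chromosome 7, 30421732 to 30428746) share a chromosome. Nfkbia lies on chromosome 12 (55489410 to 55492647), Nfkbie on chromosome 17 (45555703 to 45563169), Nfkbiz on chromosome 16 (55811375 to 55838899), Nfkb1 on chromosome 3 (135584655 to 135691547), Nfkb2 on chromosome 19 (46304320 to 46312385) and Rel on chromosome 11 (23736847 to 23770970). Nfkb1 overlaps another annotated gene, Gm43430, on its own strand, so reads of the 2 may not be separable.

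Promoter sequence of RefSeq (GRCm38.p6; 250 bases before to 50 after each start) was matched for 7 of the 10 genes, with 11 starts. The 10-base NF-κB consensus, searched on both strands, had a match in 8 of these 11 windows and in 6 of the 7 genes, against 8.46% of 32851 windows and 9.55% of 27025 genes in the whole table. The window of Nfkbib held no match, nor did those of Nfkbid at starts other than the one printed here. That of Bcl3 held its match past the start, and Nfkbiz, Nfkb1 and Relb were not matched to the table. The sequences printed here are the 250 bases before a start of the most abundant inhibitor (Nfkbia), a further classical inhibitor (Nfkbie), the subunit gene with the largest ratio in the peritoneum (Nfkb2, from an inner start) and the inhibitor with a different order of levels (Nfkbid, also from an inner start). They run 5′ to 3′ on the strand of the gene, they hold no annotated exon, and capitals mark the match. A match describes the letters and does not show that a factor binds there.
Nfkbia, chr12:55492648-55492897, minus strand: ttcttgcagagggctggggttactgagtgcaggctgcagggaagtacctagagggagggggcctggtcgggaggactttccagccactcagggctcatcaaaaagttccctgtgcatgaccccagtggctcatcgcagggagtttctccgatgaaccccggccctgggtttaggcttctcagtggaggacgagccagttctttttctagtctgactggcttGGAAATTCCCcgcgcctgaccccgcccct
Nfkbie, chr17:45555450-45555699, plus strand: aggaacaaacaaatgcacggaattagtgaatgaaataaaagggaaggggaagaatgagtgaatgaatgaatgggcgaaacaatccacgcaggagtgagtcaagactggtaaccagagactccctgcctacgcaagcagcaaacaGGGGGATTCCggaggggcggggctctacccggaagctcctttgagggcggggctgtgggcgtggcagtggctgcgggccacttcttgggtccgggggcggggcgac
Nfkb2, chr19:46305445-46305694, plus strand: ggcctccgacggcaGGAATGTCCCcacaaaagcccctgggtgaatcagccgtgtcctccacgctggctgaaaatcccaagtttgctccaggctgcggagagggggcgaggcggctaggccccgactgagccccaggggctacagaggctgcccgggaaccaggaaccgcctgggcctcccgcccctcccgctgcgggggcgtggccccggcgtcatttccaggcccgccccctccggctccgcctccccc
Nfkbid, chr7:30422156-30422405, plus strand: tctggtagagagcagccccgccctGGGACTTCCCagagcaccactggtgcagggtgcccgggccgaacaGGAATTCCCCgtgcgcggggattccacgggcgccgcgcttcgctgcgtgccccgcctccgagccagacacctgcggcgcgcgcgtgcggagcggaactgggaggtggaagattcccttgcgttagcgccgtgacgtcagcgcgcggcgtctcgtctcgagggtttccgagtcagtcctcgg
The match begins 29 bases before the start in Nfkbia, 106 in Nfkbie and 236 in Nfkb2, and Nfkbid has 2, at 226 and 181 bases. Nfkbia and the printed start of Nfkbid both hold matches, while the other starts of Nfkbid hold none. The levels of these 2 genes across the inflamed sites were in different orders.

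The first question was how the family differs between neutrophils of healthy marrow, spleen and blood. Blood neutrophils had more transcripts of 5 of the 10 genes than those of bone marrow: the nuclear inhibitors Nfkbiz, Nfkbid and Bcl3 and the subunits Nfkb2 and Relb, each by 2.36- to 2.87-fold. The edgeR quasi-likelihood test with the replicate as a block called these 5 higher and 0 lower at an adjusted p of 0.05, while 11.7% of 7809 genes tested were called higher and 9.94% lower. DESeq2 called 3 of them, Nfkbiz, Nfkbid and Bcl3, with Nfkb2 and Relb at adjusted p = 0.16 and 0.29, and edgeR called Nfkbiz and Nfkbid alone when cells holding markers of other types were left out, which kept 285 of 1206 and 1272 of 3426 marrow cells but 1115 of 1306 and 3332 of 3672 blood cells. In CPM, the groups of 2 libraries did not overlap for 9 of the 10 genes, 8 higher and 1 lower in blood, while 42.3% of all genes tested lay higher and 23.8% lower in this way. The median log2 fold change was 1.04 over the 10 genes and -0.02 over all genes tested. Without cells holding markers of other types, it was 0.71 over the 9 of these genes tested and 0.06 over all genes.

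The classical inhibitors, which hold dimers in the cytoplasm, are described first. Nfkbia, encoding IκBα, was the most abundant member in each library, at 150.5 and 179.0 CPM in bone marrow, 161 and 281 CPM in spleen and 228 and 269 CPM in blood (replicates 1 and 2). Both blood values were above both marrow values, but the fold of 1.24 did not pass the test (log2 0.31, SE 0.20, edgeR adjusted p = 0.30). Nfkbib, encoding IκBβ, ran the other way, at 21.4 and 18.9 CPM in marrow, 23.8 and 20.4 CPM in spleen and 16.9 and 12.1 CPM in blood. Its blood values were below the others in each replicate, at a log2 fold change of -0.80 (SE 0.26) against marrow that missed the threshold (edgeR adjusted p = 0.068). Nfkbie, encoding IκBε, was the least abundant of the 3, with 11.3 and 5.05 CPM in marrow, 2.60 and 12.8 CPM in spleen and 7.35 and 8.04 CPM in blood. The replicates of marrow and of spleen differed more than the tissues did.

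The atypical inhibitors act in the nucleus, where IκBζ (Nfkbiz), IκBNS (Nfkbid) and Bcl3 bind dimers of p50 or p52 and tune the genes they sit on. Nfkbiz stood at 12.2 and 18.9 CPM in marrow, 16.4 and 48.1 CPM in spleen and 48.5 and 57.2 CPM in blood. Blood was 2.80-fold above marrow (log2 1.49, SE 0.27, edgeR adjusted p = 0.012), and the 2 spleen libraries lay near the marrow and near the blood values, respectively. Nfkbid rose from 9.89 and 19.7 CPM in marrow to 47.1 and 48.3 CPM in blood, with 19.4 and 36.8 CPM in spleen, and the blood-to-marrow fold was 2.66 (log2 1.41, SE 0.29, edgeR adjusted p = 0.017). Bcl3 was at 10.1 and 33.4 CPM in marrow, 20.8 and 87.9 CPM in spleen and 58.8 and 73.8 CPM in blood. It was 2.81-fold higher in blood than in marrow (log2 1.49, SE 0.37, edgeR adjusted p = 0.031), although its marrow replicates differed from each other by more than the 2 blood libraries did. The blood-to-marrow ratio of its CPM was 5.81 in replicate 1 and 2.21 in replicate 2.

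Of the subunits, Nfkb2 and Relb, the p100/p52 precursor and the partner it holds in the slower, non-canonical arm of the pathway, were both low in marrow. Nfkb2 stood at 4.47 and 4.83 CPM in marrow, 6.70 and 14.8 CPM in spleen and 19.9 and 14.1 CPM in blood, 2.87-fold higher in blood than in marrow (edgeR adjusted p = 0.027). Relb was at 5.18 and 5.27 CPM in marrow, 9.68 and 24.5 CPM in spleen and 11.8 and 18.1 CPM in blood, 2.36-fold higher in blood (edgeR adjusted p = 0.035). Neither marrow library reached the level of any spleen or blood library for these 2 genes. Of all genes tested, 42.3% lay higher in blood than in marrow in this way, and no such share was computed for spleen. Rel, the c-Rel subunit, had 9.42 and 18.6 CPM in marrow, 15.6 and 39.4 CPM in spleen and 25.7 and 35.1 CPM in blood, and its log2 fold change of 0.84 (SE 0.25) between blood and marrow just missed the threshold (edgeR adjusted p = 0.053). Nfkb1, the p105/p50 precursor, had the smallest fold of the subunits, at 33.2 and 26.7 CPM in marrow, 26.0 and 50.1 CPM in spleen and 46.3 and 40.8 CPM in blood (log2 0.25 for blood against marrow, SE 0.26, edgeR adjusted p = 0.53).

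**Figure D1:**
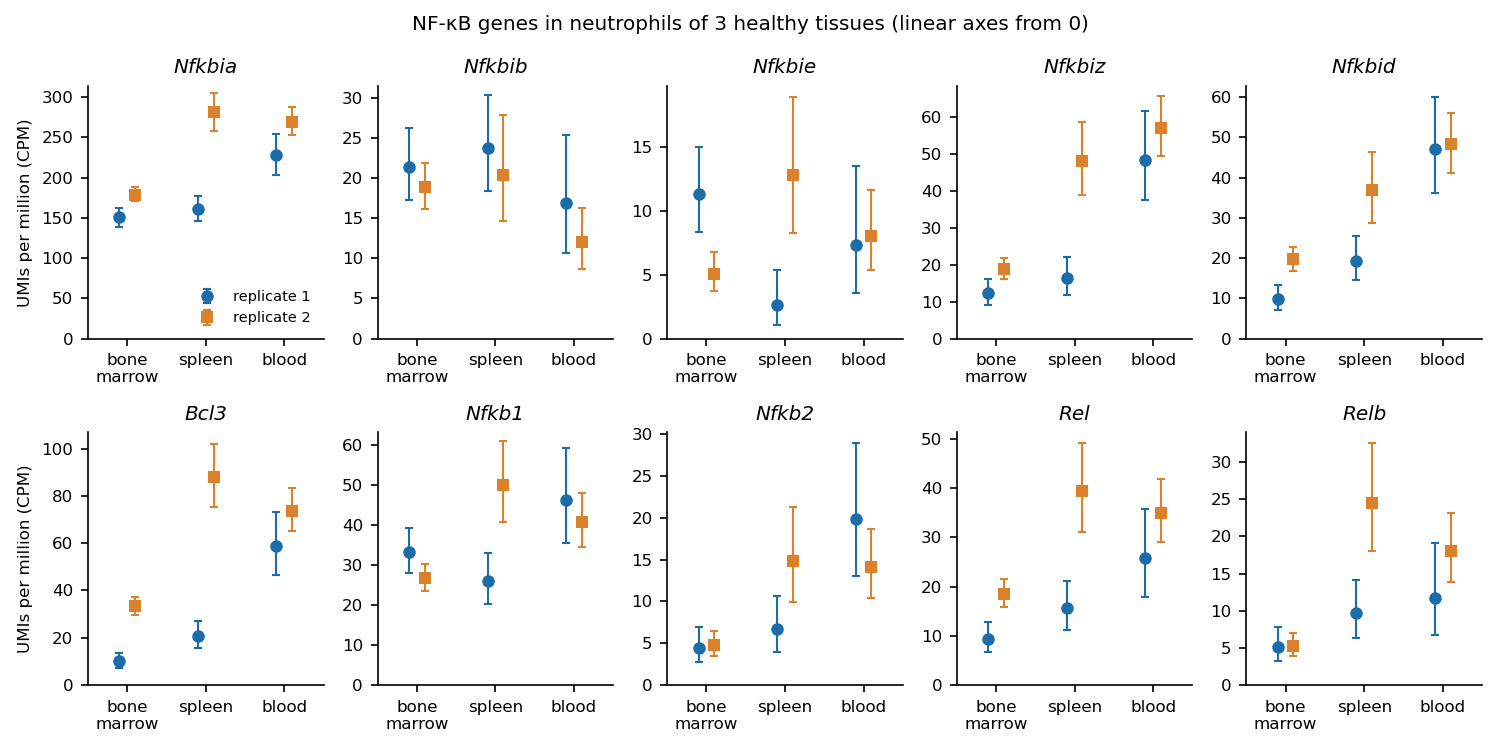
Level of each gene in CPM in the neutrophils of the 6 healthy libraries, with circles for replicate 1, squares for replicate 2 and bars for exact 95% Poisson intervals, which cover counting error only. Both blood points lie above both marrow points for 8 genes and below them for Nfkbib, and the 2 spleen points are far apart for several genes, such as 20.8 and 87.9 CPM for Bcl3.

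By the same test, 0 of the 10 genes passed between spleen and marrow or between spleen and blood. Against marrow, 0 genes were called, with 2.24% of all genes called higher and 0.512% lower. An unadjusted p under 0.05 was found for 6 of the 10, each of them higher in spleen. It was found for 1310 of 7809 genes in either direction. Relb came closest, at 2.73-fold (log2 1.45, SE 0.31, edgeR adjusted p = 0.067). Without spleen of replicate 1, Relb, Bcl3 and Nfkbiz were called higher in spleen, where 1250 of all genes were called instead of 215. Relb was called without marrow of replicate 1, with 725 of all genes, and Bcl3 without marrow of replicate 2, with 234. DESeq2, which left 3 of the 10 without an adjusted p, called 0 of the others. It had 2 of the 10 and 818 of all genes at an unadjusted p under 0.05. Against blood, 0 were called and 3 had an unadjusted p under 0.05, namely Nfkbib, higher in spleen, and Nfkbiz and Nfkbid, lower in spleen. So had 801 of all genes. DESeq2 called 0 there too, with 0 of the 10 and 468 of all genes at an unadjusted p under 0.05. Of all genes edgeR called 0% higher and 0.0512% lower in spleen than in blood. With library totals in place of TMM factors, edgeR called 1 gene higher and 5 lower in spleen than in blood, instead of 0 and 4, and the higher share of its calls between spleen and marrow went from 81.4% to 91.5%. Between spleen and blood, edgeR without the filter on low counts called 13 genes higher and 5 lower, and DESeq2 called 20 and 8. The main direction of these few calls thus turned with the setting. A p over the threshold from 2 libraries per tissue leaves the size of a difference unknown.

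These differences moved with several measured features of the libraries. Granule-high cells, defined as those with at least 1% of UMIs from the secondary granule genes Camp, Ngp and Ltf, made up 69.6% and 54.6% of the marrow cells, 46.5% and 3.43% of the spleen cells and 12.3% and 1.17% of the blood cells. Among granule-low cells alone, 0 of the 10 genes were called between blood and marrow, against 6.06% of 6044 genes higher and 6.22% lower. At an unadjusted p under 0.05 there were 4 of the 10 and 1584 of all genes, and the median log2 fold change of the 10 was 0.27 instead of 1.04. There Nfkb2 was at 1.02 (SE 0.41, edgeR adjusted p = 0.14), Nfkbid and Nfkbiz at 0.86 and 0.83 (adjusted p = 0.078 and 0.093), Bcl3 at 0.32 (adjusted p = 0.43) and Relb at 0.27 (adjusted p = 0.70). Spleen of replicate 2, which had the higher spleen value for 9 of the 10 genes, was also the library with the most B and T cell markers. The cells left out of that library for their low S100a8 and S100a9 had more Rel (106 CPM), Relb (42.4 CPM), Nfkb1, Nfkb2 and each of the classical inhibitors than its kept cells, and less Bcl3 (36.8 CPM), Nfkbiz (14.7 CPM) and Nfkbid (34.9 CPM). After cells with any B, T or NK cell marker were left out, a setting chosen after the data were seen, Relb was at 1.27 between spleen and marrow (edgeR adjusted p = 0.11) and at 0.94 between blood and marrow (adjusted p = 0.081). Between blood and marrow, 5 genes were called in that setting, with Bcl3, Nfkb2, Nfkbid and Nfkbiz higher and Nfkbib lower (edgeR adjusted p = 0.049). Marrow also had more transcripts of 9 neutrophil precursor genes (5203 and 4188 CPM, against 742 and 183 CPM in blood), more of 11 monocyte and macrophage genes (1391 and 1020 CPM, against 640 and 269 CPM) and more UMIs per cell (medians of 2698.5 and 2133.5, against 809.5 and 826). The part of these last features in the tissue differences was not tested.

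Without the replicate block, 0 of the 10 genes were called between blood and marrow, and 164 of all genes instead of 1693. Leaving out blood of replicate 1 or of replicate 2 also gave 0 of the 10, with 57 and 0 of all genes called, so these settings say little about the members. With library totals in place of TMM factors the median log2 fold change of all genes moved from -0.02 to 0.26 between blood and marrow, and 67.2% instead of 54.2% of the called genes were higher in blood. The called members also numbered 6 there.

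The wider pathway was read from 3 lists of genes. Of 28 signalling genes, 26 were tested between blood and marrow, with 7 higher and 0 lower in blood, beside the 11.7% and 9.94% of all genes. They were the adaptors Myd88 (log2 1.56, SE 0.22) and Tab2 (0.99, SE 0.26), the kinases Irak4 (0.77, SE 0.21), Map3k8 (1.2, SE 0.32) and Map3k14 (1.37, SE 0.36), and Il1rap (2.85, SE 0.36) and Il1r2 (0.99, SE 0.22), the co-receptor and the decoy receptor of IL-1. Of 13 feedback regulators, 10 were tested, and Zc3h12a (log2 1.78, SE 0.30) and Birc3 (0.91, SE 0.25) were higher while Commd1 was lower (-1.15, SE 0.33). Of 25 textbook target genes, 18 were tested, with 9 higher and 0 lower in blood, led by Il1b (log2 4.48, SE 0.42), Ptgs2 (4.01, SE 1.17) and Ccl4 (2.84, SE 0.51). The others were Bcl2a1b (2.43, SE 0.35), Tnfaip2 (2.45, SE 0.26), Ier3 (1.74, SE 0.44), Irf1 (1.71, SE 0.27), Gadd45b (1.64, SE 0.25) and Il1rn (0.92, SE 0.20). Ptgs2 rested on 0 and 15 UMIs in marrow and 11 and 58 in blood (edgeR adjusted p = 0.0496). Ccl4 had 0 and 52 UMIs in marrow and 7 and 157 in blood. Its blood value in replicate 1 (5.15 CPM) was below its marrow value in replicate 2 (5.71 CPM). Over the 3 lists, DESeq2 called 15 genes higher and 1 lower. Between spleen and marrow, Il1rap, Myd88, Il1b, Bcl2a1b and Tnfaip2 were called higher in spleen, by 1.17 to 3.56 on the log2 scale. Between spleen and blood edgeR called 0 list genes, with 5 at an unadjusted p under 0.05 over the 3 lists, and DESeq2 called 0, with 3 at an unadjusted p under 0.05. Of all genes, 801 with edgeR and 468 with DESeq2 had such a p.

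The next comparison asked how the family relates to granule content within a library, and thereby within the same mice and the same droplet run. Granule-high cells had fewer transcripts of Bcl3, Relb, Nfkbiz and Nfkbid than granule-low cells. edgeR, with the library as a block, called these 4 of 9 genes tested lower and 0 higher, while 22.3% of 5326 genes tested were lower and 21.7% higher, and Nfkb2 did not pass the filter on low counts. The median log2 fold change was -0.44 over the 9 genes and 0.02 over all genes.

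Bcl3 showed the largest difference. Its level in granule-high against granule-low cells was 4.81 against 36.4 CPM and 24.8 against 56.0 CPM in marrow, 6.79 against 67.0 CPM and 19.0 against 98.6 CPM in spleen, and 7.86 against 78.7 CPM and 7.40 against 76.5 CPM in blood. The granule-high values rest on 1 to 163 UMIs per library. They were lower in 6 of 6 libraries, and the groups did not overlap across libraries (log2 -2.04, SE 0.26, edgeR adjusted p = 2.6e-05). The 3 tissues of a replicate came from the same mice, while the test treats the 6 libraries as independent pairs. The share of all genes that were lower in 6 of 6 libraries, or without overlap, was not computed. Relb was lower in 6 of 6 libraries as well, from 3.19 to 10.5 CPM in granule-high and from 9.80 to 27.8 CPM in granule-low cells (log2 -1.24, SE 0.32, edgeR adjusted p = 0.0063). In blood of replicate 1, Relb was at 10.5 against 12.3 CPM, on 4 and 12 UMIs. Nfkbid fell from 15.4 to 61.3 CPM in granule-low cells to 8.78 to 29.6 CPM in granule-high cells, and was lower in 6 of 6 libraries (log2 -0.87, SE 0.23, edgeR adjusted p = 0.0066). Nfkbiz was at 14.0 to 59.3 CPM and 7.60 to 22.2 CPM in these 2 groups of cells, again lower in 6 of 6 libraries (log2 -0.89, SE 0.25, edgeR adjusted p = 0.010). The smallest of the 6 Nfkbiz differences was in marrow of replicate 1, at 14.0 against 11.9 CPM. Granule-high values rest on 1 to 21 UMIs per library for Relb, 3 to 113 for Nfkbid and 2 to 89 for Nfkbiz.

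The other members did not pass the test. Rel was at -0.44 (SE 0.25, edgeR adjusted p = 0.17) and Nfkbia at -0.25 (SE 0.16, adjusted p = 0.23). Nfkb1, Nfkbib and Nfkbie were at 0.13, 0.09 and 0.17, which became -0.24, -0.27 and -0.15 with library totals. That scaling moved the median of all genes from 0.02 to -0.35 on the log2 scale, called 6 members lower and left 25.1% instead of 49.4% of the called genes higher. Nfkb2, with 0 to 28 UMIs per library in the granule-high cells, did not pass the filter on low counts, and without that filter it was at -0.81 (SE 0.37, edgeR adjusted p = 0.11). Without marrow of replicate 2, the deepest library, 2 members were called, Bcl3 and Nfkbid, while Nfkbiz had an adjusted p of 0.074 and Relb was not tested. Of the list genes, Il1b (log2 -4.13, SE 0.22), Gadd45b (-1.74, SE 0.22) and Myd88 (-1.39, SE 0.19) were also lower in granule-high cells, as was the main activating subunit, Rela (-0.58, SE 0.22, edgeR adjusted p = 0.045). Counted by list, 9 of 21 signalling genes and 6 of 8 target genes tested were lower and 0 higher, and of 6 feedback regulators 2 were lower and Commd1 was higher. The erythroid genes of blood of replicate 2 were counted in with its cells, and 43 of its cells were granule-high.

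**Figure D2:**
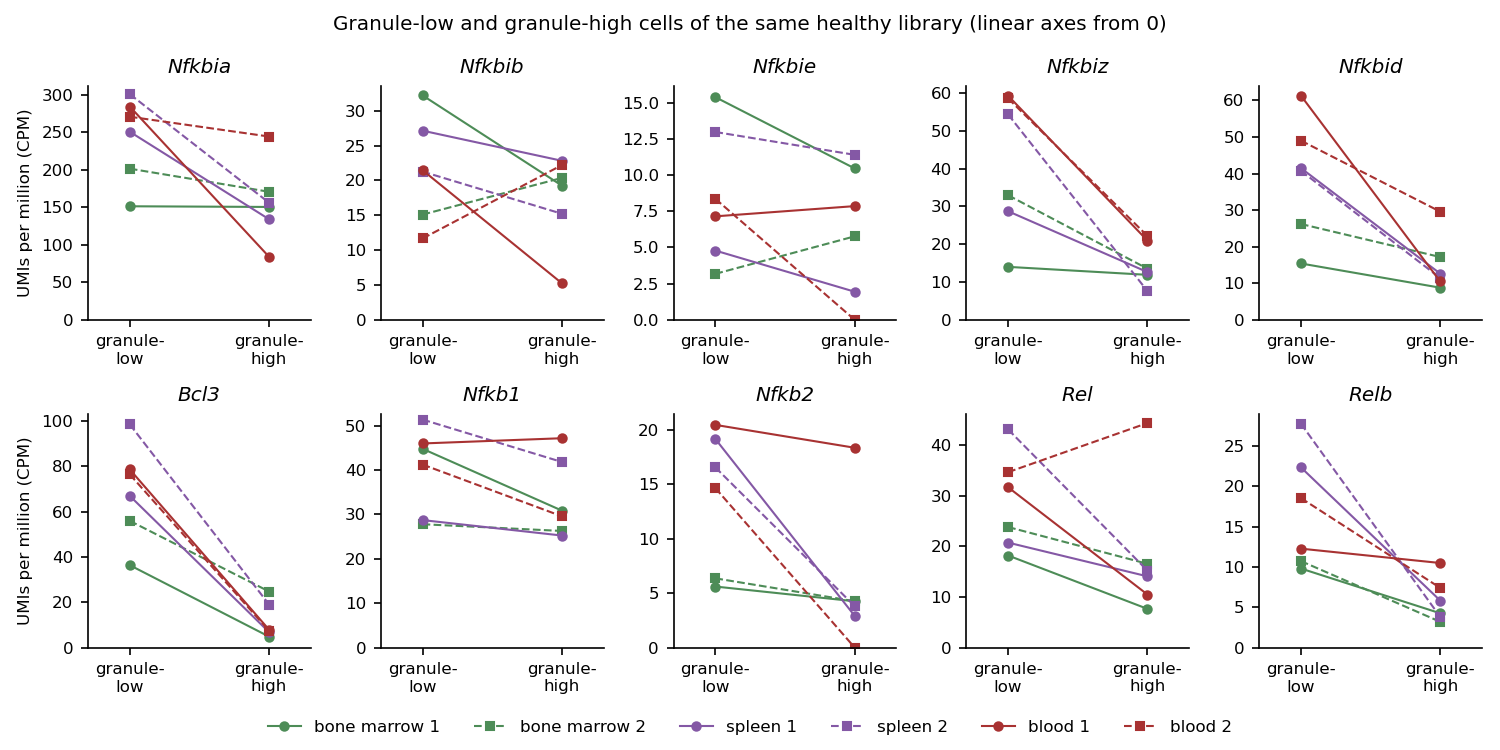
Level of each gene in CPM in the granule-low and granule-high cells of the same healthy library, with 1 line per library (colour for tissue, solid line for replicate 1 and dashed for replicate 2). All 6 lines fall towards granule-high cells for Nfkbiz, Nfkbid, Bcl3 and Relb, and for Bcl3 each granule-low value, from 36.4 to 98.6 CPM, lies above each granule-high value, from 4.81 to 24.8 CPM.

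The inflammation library set neutrophils of inflamed sites against healthy blood of the same library. Each condition is 1 pool of mice, so no test was possible. No joint, lung or peritoneum of untreated mice was profiled, so treatment, site and lavage cannot be told apart. Ratios are given with exact 95% intervals that cover counting error only, and past 2-fold was taken as a change of size among genes with at least 20 UMIs over both conditions. In healthy blood Nfkbia stood at 280.0 CPM, Nfkbiz at 156 CPM, Nfkbid at 104 CPM, Bcl3 at 90.7 CPM, Rel at 73.8 CPM and Nfkb1 at 60.5 CPM. Relb (24.0 CPM), Nfkbib (16.9 CPM), Nfkb2 (13.3 CPM) and Nfkbie (10.7 CPM) were lower. The healthy libraries of the same tissue gave the same 4 genes as the lowest.

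Between blood neutrophils of arthritic and of healthy mice, 0 of the 10 genes were past 2-fold. Of 6522 genes 1.21% were past 2-fold higher and 11.3% lower. The median ratio was 0.835 over the 10 genes and 0.757 over all genes. Nfkbie (0.522, on 15 and 12 UMIs) and Nfkbib (0.616) had the smallest ratios. Nfkbie was past 2-fold with quality filters (0.493) and with the mean of single cells (0.372). The intervals of 9 genes, taken on library totals, held 1. The exception was Nfkbid, at 72.0 against 104 CPM (ratio 0.693, interval 0.548 to 0.879). With TMM factors, which moved the median ratio of all genes to 1.04, Nfkbid was at 0.953, and Nfkbia (0.878 to 1.21), Nfkbiz (0.859 to 1.18), Bcl3 (0.901 to 1.24) and Rel (0.81 to 1.12) changed direction. Nfkb1 moved from 1.22 to 1.67 and Nfkb2 from 1.28 to 1.76. Intervals were not computed with TMM factors, so which of them would hold 1 is not known. Over all genes, 274 were then past 2-fold higher and 239 lower, instead of 79 and 734. Of the 3 lists, 3 genes were past 2-fold, all lower: Irak1 (0.357), Map3k14 (0.467) and Icam1 (0.497). With TMM factors Irak1 was at 0.492, while Map3k14 (0.643) and Icam1 (0.685) were within 2-fold.

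Joint neutrophils of the arthritic mice had more transcripts of 4 genes than healthy blood, 3 inhibitors and 1 subunit. Past 2-fold were Nfkbie, Nfkbid, Nfkb2 and Nfkbia, while 10.7% of 8148 genes were past 2-fold higher and 25.9% lower. Nfkbie had the largest ratio, from 10.7 to 44.0 CPM (4.13, interval 2.34 to 8.04). Nfkbid rose from 104 to 333 CPM (3.20, interval 2.66 to 3.88), which made it the second most abundant member in the joint after Nfkbia at 700.2 CPM (2.5, interval 2.23 to 2.81). Nfkb2 was at 36.3 CPM (2.72, interval 1.63 to 4.92). The ratios of Relb (1.66) and Rel (1.5) had intervals above 1, and Nfkbiz was at 1.18 with a lower bound of 1.01.

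Bcl3 did not share in this pattern, at 75 CPM in the joint against 90.7 CPM in healthy blood (0.827, interval 0.672 to 1.03), nor did Nfkb1 at 70.8 CPM (1.17, interval 0.913 to 1.53) or Nfkbib at 21.9 CPM (1.29, interval 0.810 to 2.19). With TMM factors Bcl3 was at 1.22, and Rel (2.21) and Relb (2.43) joined the genes past 2-fold, where the median ratio of all genes was 1.06 instead of 0.721, and 1500 genes were past 2-fold higher and 772 lower, instead of 875 and 2110. Set against arthritic blood, the other sample of the same model, 6 genes were past 2-fold higher and 0 lower, with 15.5% of 8252 genes higher and 9.34% lower. They were Nfkbie (7.90, interval 4.74 to 14.2), Nfkbid (4.62, interval 4.0 to 5.37), Nfkbia (2.85), Relb (2.38), Nfkb2 (2.13) and Nfkbib (2.1). The median over all genes was 0.997 in that comparison, so it is little affected by scaling. Bcl3 (0.918) and Nfkb1 (0.963) had intervals that held 1.

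For 9 of the 10 genes, Nfkbid excepted, the highest levels were found 3 h after IL-1β. In the lung 8 of the 10 genes were past 2-fold above healthy blood, while 10.9% of 5804 genes were higher and 49.3% lower. In the peritoneum 9 of the 10 were, while 10.2% of 5521 genes were higher and 51.8% lower. The 4 comparisons with healthy blood share that sample. Over the 10 genes the median ratio was 5.13 in the lung and 9.20 in the peritoneum, against 0.509 and 0.480 over all genes, and with TMM factors, which brought the latter to 0.951 and 0.902, all 10 genes were past 2-fold at both sites. Of all genes 1254 were then higher and 1334 lower in the lung, instead of 634 and 2861, and 1144 and 1312 in the peritoneum, instead of 563 and 2862.

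Nfkbia reached 2656 CPM in the lung and 4308 CPM in the peritoneum (ratios 9.49, interval 8.45 to 10.7, and 15.4, interval 13.7 to 17.3). The other classical inhibitors rose with it from low levels. Nfkbie went from 10.7 to 97.7 and 148 CPM (9.15 and 13.8), and Nfkbib from 16.9 to 76.5 and 145 CPM (4.53 and 8.60). Among the subunit genes, Nfkb2 rose from 13.3 to 142 CPM in the lung and 343 CPM in the peritoneum (10.6, interval 6.27 to 19.3, and 25.7, interval 15.3 to 46.4), the largest ratio of the 10 genes at each site. Of the 5521 genes counted in the peritoneum, 0.869% had a ratio at least as large. Relb rose from 24.0 to 138 and 273 CPM (5.74 and 11.4), Nfkb1 from 60.5 to 443 and 592 CPM (7.33 and 9.79), and Rel from 73.8 to 157 and 571 CPM (2.13 and 7.73). Rela, the subunit outside the 10 genes, was at 78.2 CPM in healthy blood, 126 CPM in the lung and 161 CPM in the peritoneum.

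Of the atypical inhibitors, Nfkbiz rose from 156 to 395 CPM in the lung and 1072 CPM in the peritoneum (2.54 and 6.89), and Bcl3 was at 142 CPM in the lung, within 2-fold, and 536 CPM in the peritoneum, against 90.7 CPM (1.57 and 5.91). Nfkbid was within 2-fold at both sites, though not with TMM factors (3.42 and 2.45), at 191 CPM in the lung (1.83, interval 1.47 to 2.30) and 136 CPM in the peritoneum (1.31, interval 1.01 to 1.69). Both values lay below its level in the joint.

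**Figure D3:**
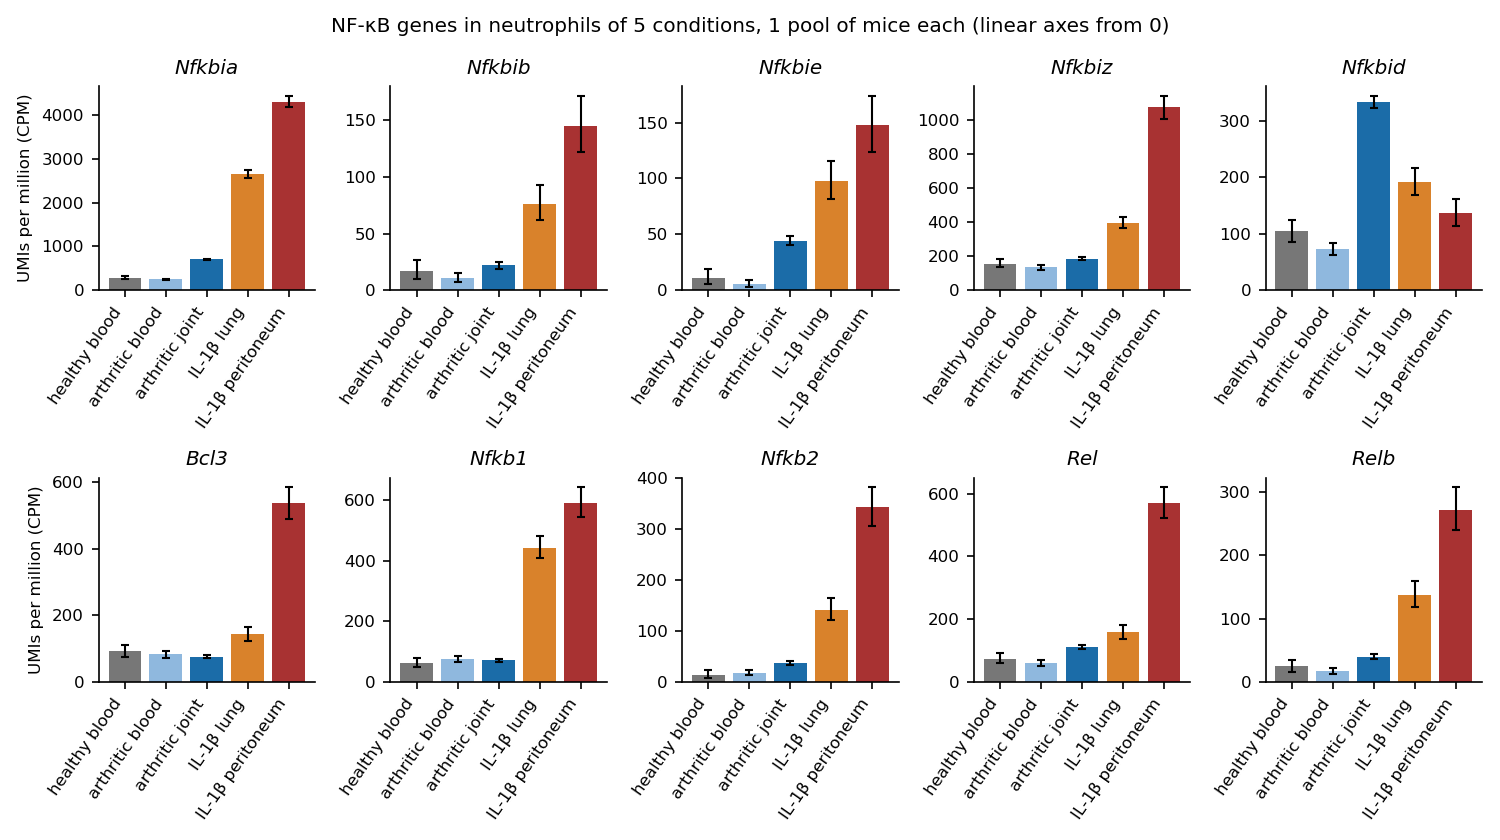
Level of each gene in CPM in the neutrophils of the 5 conditions of the inflammation library, 1 pool of mice each, with bars for the level and whiskers for exact 95% Poisson intervals (counting error only). The peritoneal bar is the tallest for 9 genes and the joint bar for Nfkbid, at 333 CPM.

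The order of levels across conditions made Nfkbid the exception. For 9 of the 10 genes the peritoneum was highest and the lung second, with intervals that did not meet. For Nfkbid the joint was highest at 333 CPM, followed by lung, peritoneum, healthy blood and arthritic blood, and the highest level was 4.62 times the lowest. Bcl3 had the joint at the bottom of its order, though its values in healthy blood, arthritic blood and joint, 90.7, 81.7 and 75 CPM, had overlapping intervals. As a share of the summed CPM of the 10 genes, Nfkbid made up 12.5% in healthy blood, 10.1% in arthritic blood, 20.6% in the joint, 4.30% in the lung and 1.67% in the peritoneum. The sum itself was 829 CPM in healthy blood, 716 CPM in arthritic blood, 1615 CPM in the joint, 4438 CPM in the lung and 8123 CPM in the peritoneum.

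**Figure D4:**
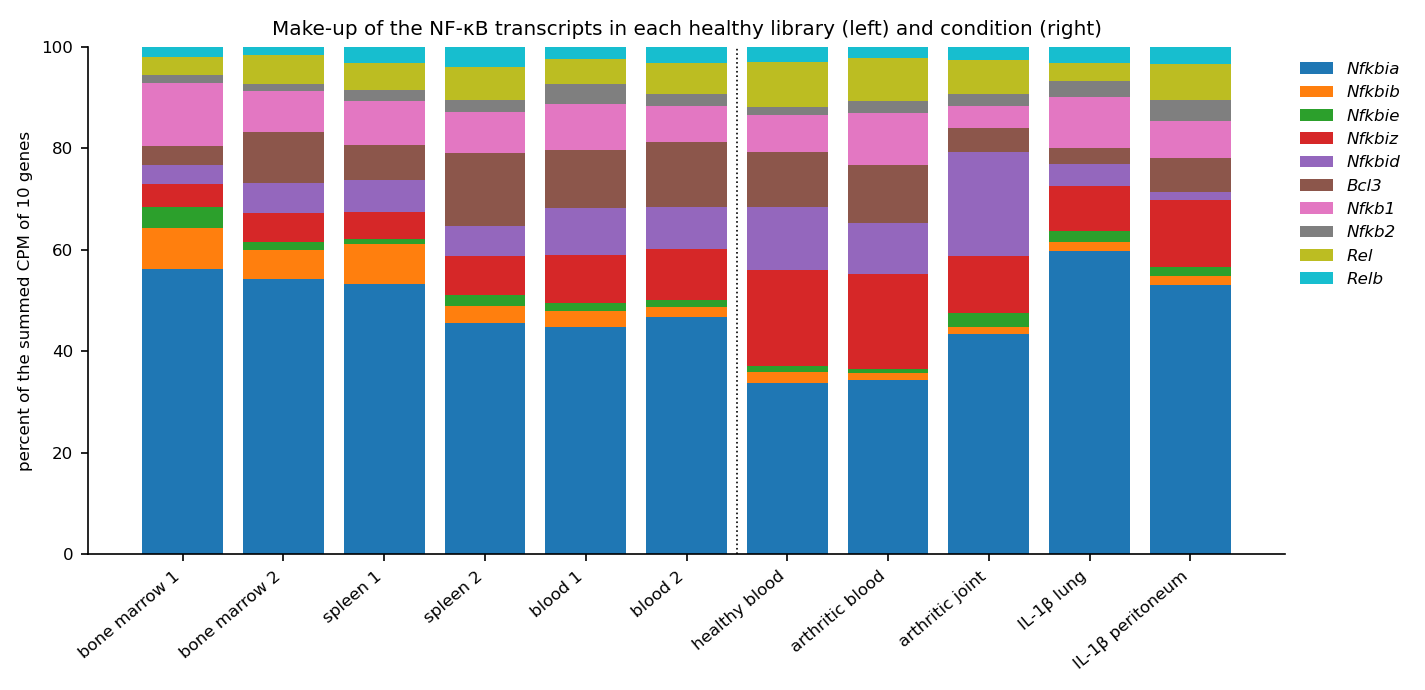
Share of each gene in the summed CPM of the 10 genes, in percent, for the 6 healthy libraries to the left of the dotted line and the 5 conditions to the right. Nfkbia makes up 33.8% to 59.8% of the sum in each column, and the Nfkbid segment is widest in the joint at 20.6% and narrowest in the peritoneum at 1.67%.

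Lung and peritoneum, given the same dose for the same time, differed in the levels of several genes. The route of IL-1β and the anaesthesia differed as well, and cannot be told apart from the site. Peritoneal neutrophils had 4 genes past 2-fold above those of the lung, Bcl3, Rel, Nfkbiz and Nfkb2, and 0 below, with 8.60% of 4629 genes past 2-fold lower in the lung and 9.72% higher. Bcl3 was at 142 CPM in the lung and 536 CPM in the peritoneum (lung over peritoneum 0.266, interval 0.223 to 0.315), Rel at 0.276 (0.234 to 0.324), Nfkbiz at 0.368 (0.331 to 0.410) and Nfkb2 at 0.413 (0.343 to 0.496). The ratios of Relb (0.505), Nfkbib (0.526), Nfkbia (0.617), Nfkbie (0.662) and Nfkb1 (0.748) were nearer to 1, with intervals below it. Nfkbid alone of the 10 was higher in the lung (1.40, interval 1.13 to 1.75). The median ratio of all genes was 1.02, and TMM factors left the 4 genes past 2-fold. Transcripts of 11 monocyte and macrophage genes summed to 296 CPM in the lung, 389 CPM in the peritoneum and 283 CPM in healthy blood, with 4, 3 and 4 of the genes at 0. B cell and T cell markers were at most 28.6 CPM and 14.9 CPM at either site, against 210 CPM and 24.9 CPM in healthy blood. With cells holding such markers left out, 8 genes in the lung and 9 in the peritoneum were past 2-fold above healthy blood, as before.

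**Figure D5:**
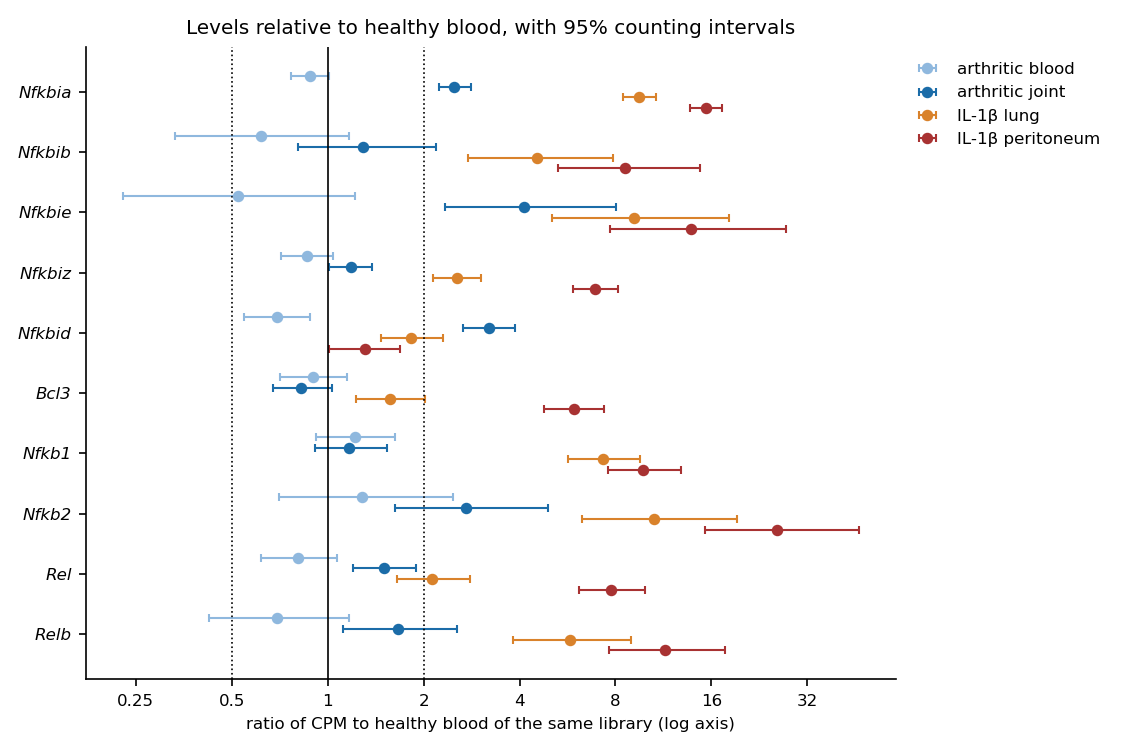
Ratio of each gene's CPM in 4 inflamed conditions to that in healthy blood of the same library, on a log axis, with exact 95% intervals for counting error, a solid line at 1 and dotted lines at 0.5 and 2. Points of arthritic blood lie between 0.522 and 1.28, and the peritoneal points lie between 5.91 and 25.7 except for Nfkbid at 1.31.

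The number of members seen in a single cell was also compared. With each cell thinned to 1000 UMIs, and cells of fewer UMIs left out (155 of 509 in healthy blood, 140 of 814 in arthritic blood, 123 of 2857 in the joint, 94 of 380 in the lung and 61 of 292 in the peritoneum), the median number of the 10 genes seen in a cell was 0 in healthy and arthritic blood, 1 in the joint, 2 in the lung and 4 in the peritoneum. Cells with none of the 10 made up 50.6% of healthy blood, 30.5% of the joint, 6.64% of the lung and 2.16% of the peritoneum. Nfkbia was seen in 20.1% of thinned cells of healthy blood, 36.3% in the joint, 81.5% in the lung and 89.2% in the peritoneum (unthinned 35.8%, 63.1%, 86.8% and 92.1%). Nfkbid was seen in 7.63%, 24.9%, 12.6% and 13.4% of thinned cells in the same order (unthinned 18.5%, 53.8%, 33.9% and 27.4%), so that the thinned shares of lung and peritoneum do not follow the order of its CPM. Bcl3 was seen in 5.37%, 7.21%, 10.5% and 45.0% of thinned cells (unthinned 16.7%, 20.4%, 34.7% and 69.9%), with the joint not below healthy blood as it was in CPM. No order is read from these shares. The inflammation library held at most 4 cells of other classes, too few to measure free RNA. In blood of replicate 2, 98.8% of 723 red cells had none of the 10 genes at 500 UMIs, against 75.7% of its neutrophils.

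Most of the target genes counted were past 2-fold higher at the inflamed sites, while Irf1 was lower in the joint and the lung. Of the 25 targets, 14 of 21 counted were past 2-fold higher in the joint than in healthy blood, 17 of 20 in the lung and 19 of 20 in the peritoneum, with 1, 1 and 0 lower, and medians of 4.89, 18 and 24.9. Of all genes 10.7%, 10.9% and 10.2% were higher. With TMM factors 15, 19 and 19 targets were higher and 1, 1 and 0 lower. Single ratios moved too, from 122 to 229 for Cxcl3 in the lung and from 212 to 398 for Bcl2a1d in the peritoneum. The largest ratios were those of the chemokine Cxcl2 (35.3), the prostaglandin synthase Ptgs2 (28.5) and the chemokine Ccl4 (22.8) in the joint. In the lung they were Cxcl3 (122, interval 99 to 153), Bcl2a1d (4 UMIs in healthy blood, ratio 115, interval 44.7 to 424) and Il1a (2 UMIs in healthy blood, ratio 80.5, interval 22.0 to 669). In the peritoneum they were the survival genes Bcl2a1d (212, interval 82.4 to 780) and Bcl2a1b (95.8, interval 67.7 to 140.0), near-identical copies between which reads may be split, and Ikbke, an inducible IκB kinase of the signalling list (4 UMIs in healthy blood, ratio 71.3, interval 27.5 to 264). The intervals of the 3 genes overlap within the lung and within the peritoneum, so the order of the genes is not settled.

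Some list genes were past 2-fold lower. Card9, an adaptor of C-type lectin receptors, was past 2-fold lower at each of the 3 sites (0.311 in the joint, 0.179 in the lung, 0.209 in the peritoneum). Irf1 was lower in the joint (0.337) and the lung (0.233), and Irak1 in the peritoneum (0.251). Others rested on few UMIs, namely Tab1 in the joint (9 UMIs in healthy blood, ratio 0.376, interval 0.175 to 0.899), Tab3 in the lung (6 UMIs there, 0.269, interval 0.0879 to 0.7) and Tradd in the peritoneum (4 UMIs there, 0.191, interval 0.0483 to 0.553). With TMM factors Tab1 (0.554) and Tab3 (0.502) were within 2-fold, and Irf1 in the joint (0.496) and Irak1 (0.472) were just past it. Card9 was then at 0.457 in the joint, 0.335 in the lung and 0.394 in the peritoneum, Irf1 in the lung at 0.435 and Tradd at 0.359. Of the signalling genes counted, 4 of 27 were higher and 5 lower in the joint, 9 of 26 and 8 in the lung, and 10 of 25 and 6 in the peritoneum. Among all genes 10.7%, 10.9% and 10.2% were higher and 25.9%, 49.3% and 51.8% lower, shares that move with the scaling as given above, and no difference between a list and all genes was tested. The feedback regulators had 3 of 11, 5 of 10 and 6 of 11 higher, in the same order of sites, with 0, 1 and 1 lower. With TMM factors the signalling genes had 7, 12 and 14 higher and 1, 1 and 3 lower, and the feedback regulators 4, 6 and 6 higher and 0 lower at each site. Between joint and arthritic blood the largest ratios were those of Cxcl2 (43.9), Ccl4 (interval 34.9 to 45.9) and Ccl3 (32.3), and the lower genes were Irf1 (0.407) and Irak4 (0.462). Between lung and peritoneum, Cxcl3 (6.34), Cxcl1 (3.40) and Il1r2 (3.34) were higher in the lung, and Tnip3 (1 against 98 UMIs, ratio 0.00728, interval 0.000183 to 0.0415), Ikbke (0.122) and Cxcl10 (0.127) were lower.

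The genes whose levels were most like those of a member were sought over the 6 healthy libraries and 5 conditions, among 2046 genes with a mean of at least 50 CPM. Likeness was the root mean square distance in log2(CPM + 5), with each profile centred on its replicate or library, over 11 values. Relb was closest to Map3k8 (0.196) and Rel to Tnip1 (0.202), and Map3k8 was also closest to Nfkb2 (0.235). Nfkbiz was closest to Birc3 (0.214), and Nfkbiz and Bcl3 were 0.247 apart. Nfkb1 was closest to Fas (0.240), and Nfkbia to Tet2 (0.262), Mapkapk2 (0.264) and Nfkb2 (0.268). Nfkbid had Gm20406 (0.264), annotated as an antisense RNA, Btg2 (0.292) and Atp2b1 (0.302) as its nearest genes. Nfkbib and Nfkbie had means under 50 CPM and were not compared. Relb, Nfkb2, Rel and Nfkb1 passed that minimum only through their levels in the lung and peritoneum, since their means over the other 9 values were 17.2, 14.6, 43.1 and 47.55 CPM, so their likeness mostly describes genes that are high there.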

How the data were processed

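Per the labels and the submitters' processing notes, Cell Ranger and the mm10 genome were used to turn reads into UMI counts, which the authors deposited unnormalized as 1 table per library of gene symbols by cells. Only cells with a single hashtag were kept by the authors in the inflammation library, and their table of cells gave each cell's condition and ImmGen class. Duplicates of a molecule are merged by its UMI, so counts are molecules captured, from the 3′ end.

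Counts were summed per library, or per condition, over the chosen cells, as cells are not replicates. Healthy sums were tested with edgeR 4.0.16 (R 4.3.3): glmQLFit and glmQLFTest, TMM factors, filterByExpr, tissue with the replicate as a block over all 6 libraries, or granule group with the library as a block, and Benjamini-Hochberg adjustment over all genes tested. The block followed the study's methods, by which tissues of 1 replicate came from the same mice, and same-numbered libraries deviated together (r = 0.597 between blood and marrow, 0.550 between blood and spleen and 0.631 between marrow and spleen). Replicate and age cannot be told apart. DESeq2 1.42.0 was an alternative. Conditions of the inflammation library were compared by ratios of CPM, with exact Poisson and conditional binomial intervals at the 95% level (scipy). A count of 0 was set to 3 counts for a ratio. The code was checked on simulated data. Doublets were not called among healthy cells.

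Named genes are the 10 members, list genes called in a healthy contrast, and per inflammation contrast the 3 list genes with the largest ratio past 2-fold in each direction. In the granule contrast, a few of the called list genes are named and the rest counted. The members and lists were chosen with earlier results of these data known. Alternatives were other scalings, filters, cell choices, thresholds and leaving out each library.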

Additional observations from a re-analysis of the deposited data

Results flagged for a closer look

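Nfkbie, encoding IκBε, moved in opposite directions between spleen and bone marrow in the 2 replicates. Its level in spleen was 0.23 times that in marrow in replicate 1 (interval 0.088 to 0.512) and 2.53 times in replicate 2 (interval 1.49 to 4.20). These intervals cover counting error only, the spleen values rest on 7 and 25 UMIs, and the difference between replicates was not tested. Spleen of replicate 2 is also the library with the most B and T cell markers, and the cells left out of it had 35.9 CPM of Nfkbie; the part of either was not tested.

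Nfkbid, encoding IκBNS, had a ratio to healthy blood below 1 in 1 condition and above 1 in the other 3. It was 0.693 in arthritic blood, 3.2 in the joint, 1.83 in the lung and 1.31 in the peritoneum, with counting intervals that did not hold 1. With TMM factors the ratio in arthritic blood was 0.953, and without them the median ratio of all genes there was 0.757. For the other 9 genes the interval in arthritic blood, taken on library totals, held 1. The ratios share the healthy blood sample, each condition is 1 pool of mice, and the differences between conditions were not tested.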

How the results depend on the processing

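Between blood and marrow 5 genes were called, and 3 with DESeq2 (Bcl3, Nfkbid and Nfkbiz), 2 without cells holding markers of other types (Nfkbid and Nfkbiz), 0 among granule-low cells and 0 to 7 when 1 library was left out. Same-numbered libraries are paired by their mice, and without the replicate block 0 were called there, with 164 genes in all instead of 1693; the block changed no other count of members. Between spleen and marrow 1 gene (Relb) was called with the S100 minimum at 1% and 1 (Relb) without cells holding other markers, against 0, and 0 to 3 with 1 library left out (Bcl3, Nfkbiz and Relb without spleen of replicate 1). In the granule comparison 2 to 5 were called with 1 library left out. At 1.5-fold 2 genes were past the threshold in arthritic blood and 8 between lung and peritoneum, and 1 (Nfkbie) was in arthritic blood with the mean of single cells and 1 (Nfkbie) with quality filters. Over all genes, 1693 were called between blood and marrow, 742 among granule-low cells and 0 to 2626 with 1 library left out (0 and 57 without blood of replicate 2 and 1). Between spleen and marrow 215 were called, 0 without the block, 117 with quality filters, 910 without cells holding other markers, 647 among granule-low cells and 0 to 1250 with 1 library left out. Between spleen and blood 4 were called, and 0 to 28 under the other settings, or 0 to 245 with 1 library left out. The causes were not tested.

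Directions turned for members that passed no test. In log2 fold change, Nfkb1 between blood and marrow was at -0.02 among granule-low cells. Between spleen and marrow, Nfkbib was at 0.13 with library totals and 0.07 and 0.01 with the S100 minimum at 1% and 5%, Nfkb1 at -0.12 without cells holding other markers and -0.05 among granule-low cells, and Nfkbie at 0.13 among granule-low cells. Between spleen and blood, Nfkbie was at 0.11 with the 1% minimum, Bcl3 at 0.09 without cells holding other markers, and Nfkbie at 0.31, Bcl3 at 0.10 and Nfkb2 at 0.04 among granule-low cells. Rel was at 0.04 there without cells holding lymphocyte markers, a setting chosen after the data were seen. Between granule-high and granule-low cells, Nfkbib, Nfkbie and Nfkb1 were at -0.27, -0.15 and -0.24 with library totals, and Nfkbib at 0.0 (just under 0) without the filter on low counts.

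With 1 library left out, ranges that crossed 0 were -1.35 to 0.70 for Nfkbie between blood and marrow. Between spleen and marrow they were -0.29 to 0.22 for Nfkbib, -1.80 to 0.67 for Nfkbie and -0.24 to 0.46 for Nfkb1. Between spleen and blood they were -1.60 to 0.81 for Nfkbie, -1.14 to 0.10 for Bcl3, -0.48 to 0.18 for Nfkb1, -0.37 to 0.02 for Rel and -0.10 to 0.40 for Relb, and between granule groups -0.05 to 0.23 for Nfkbib and -0.03 to 0.22 for Nfkb1. Leaving out 1 library leaves a tissue with 1, which is then assumed to vary like the others. Low members such as Nfkbie, with 7 to 48 UMIs per healthy library, are limited by depth, and the inflammation library has no replicates.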

Other observations

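Il1r1, the signalling receptor of IL-1, had 0 UMIs in each of the 6 healthy libraries, 1 UMI in arthritic blood, 2 in the joint and 0 in healthy blood, lung and peritoneum. The exact Poisson interval of a count of 0 reaches 2.79 CPM in the lung and 3.91 CPM in the peritoneum. Its co-receptor Il1rap was at 159 CPM in healthy blood, 650 CPM in the lung and 647 CPM in the peritoneum. Il1r1 was chosen for mention after its values were seen.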
